A study of Mus musculus with 2 samples.

Results

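The 10 genes described here are core parts of the circadian clock: Clock, Arntl, Per1, Per2, Per3, Cry1, Cry2, Nr1d1, Nr1d2 and Dbp. They were taken by symbol, and each symbol matched 1 of the 55536 annotated genes in the deposited tables. Total RNA, depleted of ribosomal RNA, was sequenced from the left cerebral cortex of 2 B6CASTF1/J females aged 10 days, an F1 hybrid of a laboratory strain and a wild-derived castaneus strain. Libraries started from 300 ng of RNA, with ERCC spike-in RNAs added. The libraries form 1 group with no treatment and no contrast, so no test between conditions was possible and no p-value is given. The labels number the females separately but give 1 donor identifier for both, and the sources used here do not give the time of day at which tissue was taken. Reads were assigned to the mm10 reference without separating the parental alleles.

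In the mammalian clock, the proteins of Clock and Arntl (also called Bmal1) bind E-box sequences as a pair and switch on the Per and Cry genes. The PER and CRY proteins then repress that pair, and the cycle takes about a day. In a linked loop, the nuclear receptors encoded by Nr1d1 and Nr1d2 (REV-ERB alpha and beta) repress Arntl through ROR elements, which the activating ROR receptors also bind. Dbp, an output gene of the E-box arm, encodes an activator that binds D-boxes. The clock runs in the suprachiasmatic nucleus of the hypothalamus and in most other tissues, including cortex, where several of these mRNAs rise and fall over the day. A single collection therefore gives their levels at 1 point only.

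Expected counts summed to 29867111.88 and 31031339.97 over annotated genes in replicates 1 and 2. Cortical markers were present, with Slc17a7, the vesicular glutamate transporter of cortical excitatory neurons, highest of 6 at 511 TPM (a level relative to all transcripts of the library and corrected for their length) and Fezf2 lowest at 22.6 TPM. None of 4 markers of the suprachiasmatic nucleus reached 1 TPM in both libraries. Of these, Avp was highest at 0.695 TPM, and Six6 had 0 reads in both libraries, which allows up to 3 reads in each. Cell type markers differed between the animals: 4 of 4 tested genes of myelinating oligodendrocytes were higher in replicate 2, with a median log2 ratio of 1.18, from 0.77 for Cnp to 1.41 for Mog, and the 6 listed genes together had 141.91 TPM in replicate 1 and 273.96 TPM in replicate 2. Of 6 choroid plexus markers, Ttr alone reached 1 TPM in both libraries and had enough reads to be compared, at 81 and 216 reads and a log2 ratio of 1.39 (counting SE 0.19). The 6 together had 6.64 TPM in replicate 1 and 12.83 TPM in replicate 2, of which Ttr held 3.98 and 9.70 TPM. In bulk tissue, fewer cells of a type and less RNA per cell cannot be told apart.

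Promoter sequences of Per1, Cry1, Per3 and Nr1d1 are shown as examples of windows with an E-box, its variant or a D-box. RefSeq (GRCm38.p6) windows of 300 bases, from 250 before to 50 after a gene's start, were available for 9 of the 10 genes, as 13 windows. They were searched on both strands for the E-box CACGTG, its variant CACGTT, the D-box TTATGTAA or TTACGTAA, the ROR element TAGGTCA or TGGGTCA, and the cAMP response element TGACGTCA. The E-box and its variant share their opening letters, and no matches overlapped in the windows of the clock genes. At least 1 match lay in 6 of the 13 windows, which belong to 6 genes, and in 19.5% of all 32851 windows of this length. Among all windows the E-box was found in 7.15%, its variant in 4.68%, the D-box in 1.06%, the ROR element in 6.45% and the cAMP response element in 1.79%. A match is a description of letters, not a measured binding site.

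Per1 has a pair of windows, and both are printed because its transcripts begin at more than 1 place. The stretches lie on the plus strand at chr11:69098699-69098947 and chr11:69099902-69100151, with the E-box in capitals. Cry1, at chr10:85185065-85185174 on the minus strand, holds an E-box and the E-box variant close together. Per3, at chr4:151044786-151044905 on the minus strand, holds a D-box at 2 positions. Nr1d1, at chr11:98775378-98775497 on the minus strand, holds the E-box variant.
Per1 start 1: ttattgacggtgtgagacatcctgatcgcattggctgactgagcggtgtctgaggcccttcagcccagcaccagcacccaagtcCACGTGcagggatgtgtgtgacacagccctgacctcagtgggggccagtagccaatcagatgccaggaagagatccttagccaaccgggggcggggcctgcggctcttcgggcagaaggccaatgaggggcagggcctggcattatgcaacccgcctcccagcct
Per1 start 2: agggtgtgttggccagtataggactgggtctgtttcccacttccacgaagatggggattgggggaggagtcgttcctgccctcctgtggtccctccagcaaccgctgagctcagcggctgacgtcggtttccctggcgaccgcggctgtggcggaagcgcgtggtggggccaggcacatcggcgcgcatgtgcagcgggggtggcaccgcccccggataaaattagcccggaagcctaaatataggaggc
Cry1: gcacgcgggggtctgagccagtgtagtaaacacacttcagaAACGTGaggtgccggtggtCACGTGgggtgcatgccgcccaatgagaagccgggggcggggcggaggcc
Per3: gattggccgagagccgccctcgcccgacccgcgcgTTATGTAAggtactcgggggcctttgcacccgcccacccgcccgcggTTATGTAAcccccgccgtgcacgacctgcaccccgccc
Nr1d1: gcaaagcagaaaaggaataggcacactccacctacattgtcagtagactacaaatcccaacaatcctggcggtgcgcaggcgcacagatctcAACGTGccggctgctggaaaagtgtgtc

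The Per1 E-box begins 166 bases before the first of its RefSeq starts, and none of the 5 motifs was found in the window of the second. The Cry1 E-box begins 60 bases before the start and its variant 79 bases before. In Per3 the D-boxes begin 205 and 158 bases before the start. The variant in Nr1d1 begins 28 bases before the start, and Cry2 has 1 such variant 166 bases before its own. Arntl has 1 ROR element, TAGGTCA, a little downstream of its second RefSeq start. No match was found in the windows of Clock, Nr1d2 or Dbp, which says only that these letters are not in these windows.

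All 10 clock genes were expressed above 1 TPM in both libraries, from about 7 TPM for Per2 and Per3 to about 53 TPM for Cry2. Their median was 22.2 ± 1.10 TPM (SD, n = 2), beside a median of 16.6 TPM over the 13003 detected nuclear protein-coding genes, those that reached 1 TPM in each library. Below, each gene has its TPM in replicates 1 and 2, with the mean and SD of those 2 values. Credible intervals are those the authors deposited, and the sources used here do not give their level.

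Of the activators, Clock, a basic helix-loop-helix PAS transcription factor, stood at 21.3 and 18.0 TPM (19.7 ± 2.34 SD, n = 2) from 2834 and 2795 reads. Its partner Arntl stood at 14.3 and 11.7 TPM (13.0 ± 1.83) from 702 and 643 reads. Both were higher in replicate 1, and they are the 2 clock genes whose credible intervals did not overlap between the animals. Among all 12689 genes tested between the animals, intervals lay apart with replicate 1 higher for 12.9% and with replicate 2 higher for 1.62%. Clock exceeded Arntl by 1.51-fold on average, a log2 ratio of 0.57 in replicate 1 and 0.62 in replicate 2, with intervals apart in both libraries. Npas2, a paralogue of Clock that also pairs with the Arntl protein, was at 19.7 and 22.1 TPM. The log2 ratio of Clock over Npas2 was 0.12 in replicate 1 and -0.29 in replicate 2, so the animals gave opposite orders. Over transcripts of 500 bases or more, a setting added after the values were seen, Clock was the higher in both libraries, with log2 ratios of 0.55 and 0.17. Arntl2, the paralogue of Arntl, was low at 3.51 and 3.61 TPM.

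Of the Per genes, which encode PAS-domain repressors, Per1 was the most abundant at 35.1 and 33.8 TPM (34.5 ± 0.912) from 1924 and 2310 reads. Per2 was at 7.20 and 7.43 TPM (7.32 ± 0.163) from 666 and 697 reads. Per3, the member of the family that is least needed for rhythmic behaviour in mice, was at 7.38 and 7.25 TPM (7.32 ± 0.0919) from 715 and 792 reads. Per1 exceeded Per2 by 4.66-fold, with log2 ratios of 2.27 and 2.17, and Per3 by the same factor, with log2 ratios of 2.24 and 2.21. In the alignment-free tables the gaps were 4.12-fold to Per2 and 3.07-fold to Per3. Per2 and Per3 could not be ordered, since the log2 ratio of Per3 over Per2 was 0.035 in replicate 1 and -0.035 in replicate 2. Per3 was the higher by alignment-free TPM, by 1.34-fold.

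Of the cryptochromes, flavoprotein relatives that repress the Clock and Arntl pair, Cry2 was the most abundant of the 10 genes at 53.4 and 51.8 TPM (52.6 ± 1.12) from 3444 and 3840 reads. Cry1 was at 9.23 and 9.21 TPM (9.22 ± 0.0141) from 506 and 539 reads. Cry2 exceeded Cry1 by 5.65-fold, with log2 ratios of 2.52 and 2.48, and this was the widest gap between paralogues of the same family among the 10 genes. Per2 over Cry1 gave log2 ratios of -0.35 and -0.31, but the credible intervals of the genes overlapped in both libraries.

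Among the nuclear receptors of the second loop, Nr1d1 was at 34.8 and 37.1 TPM (35.9 ± 1.64) from 1634 and 1930 reads. Nr1d2 was at 24.7 and 25.6 TPM (25.1 ± 0.608) from 1673.69 and 1939.99 reads. Nr1d1 exceeded Nr1d2 by 1.43-fold, with the log2 ratio of Nr1d2 over Nr1d1 at -0.49 and -0.54. The expected counts of the other 9 clock genes were whole numbers within 0.005 in both libraries, while those of Nr1d2 were not. Their antagonists at the ROR element were of the same order: Rorb was at 29.0 and 29.7 TPM and Rora at 20.3 and 20.1 TPM. Nr1d1 exceeded Rorb by 1.22-fold and Rora by 1.77-fold, in both libraries.

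Dbp, the D-box activator, was at 25.2 and 24.9 TPM (25.035 ± 0.191) from 733 and 766 reads. Its relative Tef exceeded it by 2.36-fold, at 59.6 and 58.8 TPM. The third member of that PAR bZIP family, Hlf, was at 24.4 and 27.8 TPM. Dbp and Hlf could not be ordered, with log2 ratios of 0.045 and -0.16. By alignment-free TPM, Hlf was the higher in both libraries, with log2 ratios of -0.067 and -0.47. Nfil3, the repressor that competes for D-boxes, was lower at 5.99 and 6.06 TPM, and Dbp exceeded it by 4.10-fold.

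**Figure D1:**
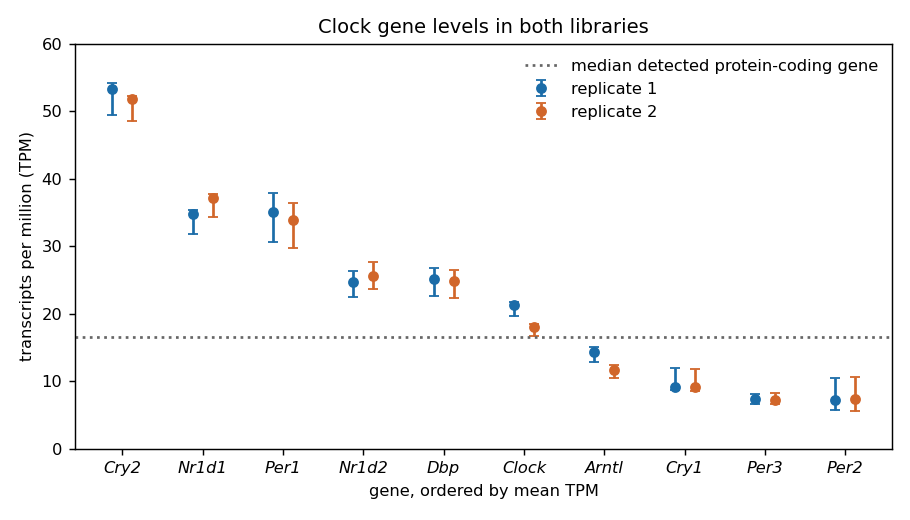
Levels of the 10 clock genes in TPM (vertical axis), with a point for each library and bars for the deposited credible interval; the dotted line is the median detected protein-coding gene, 16.6 TPM. Cry2 stands above all others, and Arntl, Cry1, Per3 and Per2 lie below the line in both libraries.

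Ordered by mean TPM, the genes ran Cry2, Nr1d1, Per1, Nr1d2, Dbp, Clock, Arntl, Cry1, Per3 and Per2. Of the 9 neighbouring pairs in this order, 3 did not differ beyond their spread: Nr1d1 and Per1, Nr1d2 and Dbp, and Per3 and Per2. The animals disagreed on the order within each of these. Arntl and Cry1 kept their order in both libraries, though their credible intervals lay apart in 1 library. The other 5 neighbouring pairs had intervals apart in both. Among the 13003 detected protein-coding genes, Cry2 ranked 2280 and was above 82.5% of them, whereas Per2 and Per3 ranked 9448 and were above 27.3%.

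**Figure D2:**
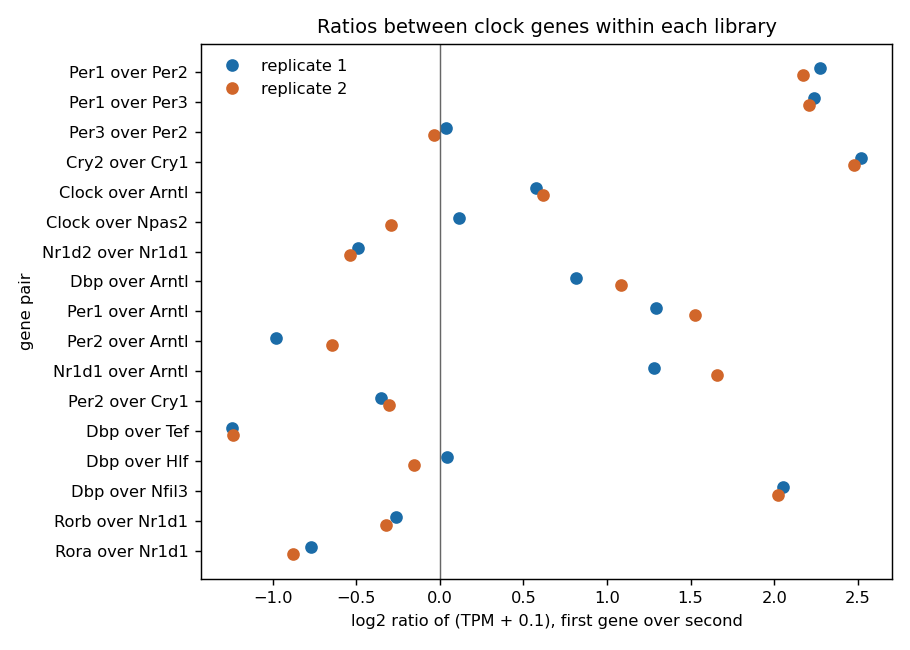
Log2 ratios between 17 gene pairs within each library (horizontal axis), with 1 point a library and a line at 0, where both genes are equal. In 14 of the 17 pairs both points lie on the same side of 0; the others are Per3 over Per2, Clock over Npas2 and Dbp over Hlf.

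Ratios of E-box driven genes to Arntl set the opposing arms of the clock against each other at the time of collection. Per1 exceeded Arntl by 2.66-fold, with log2 ratios of 1.29 and 1.53. Over transcripts of 500 bases or more the log2 ratios of Per1 over Arntl were lower, at 0.67 and 1.10. By alignment-free TPM the gap was 1.86-fold. Nr1d1 exceeded Arntl by 2.77-fold, with log2 ratios of 1.28 and 1.66, and Dbp by 1.93-fold, with log2 ratios of 0.81 and 1.08. Per2 was below Arntl, with log2 ratios of -0.98 and -0.65, and the credible intervals lay apart in 1 library. All 4 ratios to Arntl were higher in replicate 2, and they share the Arntl value of each library. Over the 17 pairs, the largest change of a log2 ratio between the libraries was 0.408, for Clock over Npas2.

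Between the animals, reads were compared after scaling by TMM (trimmed mean of M-values), as the log2 ratio of replicate 2 over replicate 1 with the standard error of counting alone. None of the 10 clock genes differed by 1.5-fold or more, beside 1.77% of the 12689 genes with a mean of 100 reads or more. With 1 animal on each side of this ratio, no gene has a replicate check.

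Clock and Arntl were lower in replicate 2, with log2 ratios of -0.043 (counting SE 0.038) and -0.15 (0.079). The 8 others were higher in replicate 2. Per1 had the largest ratio at 0.24 (0.045), with 1940 scaled reads in replicate 1 and 2292 in replicate 2. Nr1d1 followed at 0.22 (0.048), then Nr1d2 at 0.19 (0.048) and Cry2 at 0.13 (0.034). Per3 was at 0.12 (0.074), Cry1 at 0.068 (0.089), Per2 at 0.042 (0.078) and Dbp at 0.040 (0.075). Clock lay at 1.12 counting errors from 0, and Per2, Cry1 and Dbp within 1. The median over the 10 genes was 0.096, beside 0.011 over all genes tested, of which 53.4% were higher in replicate 2.

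On TPM instead of scaled reads, the median over the clock genes was -0.020, 3 of the 10 genes were higher in replicate 2, and Per1, Per3, Cry1, Cry2 and Dbp changed sign, with log2 ratios from -0.054 for Per1 to -0.0031 for Cry1. The median over all genes tested was itself -0.097 on that scale, and 8 of the 10 clock genes lay above the median of all genes on both scales.

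**Figure D3:**
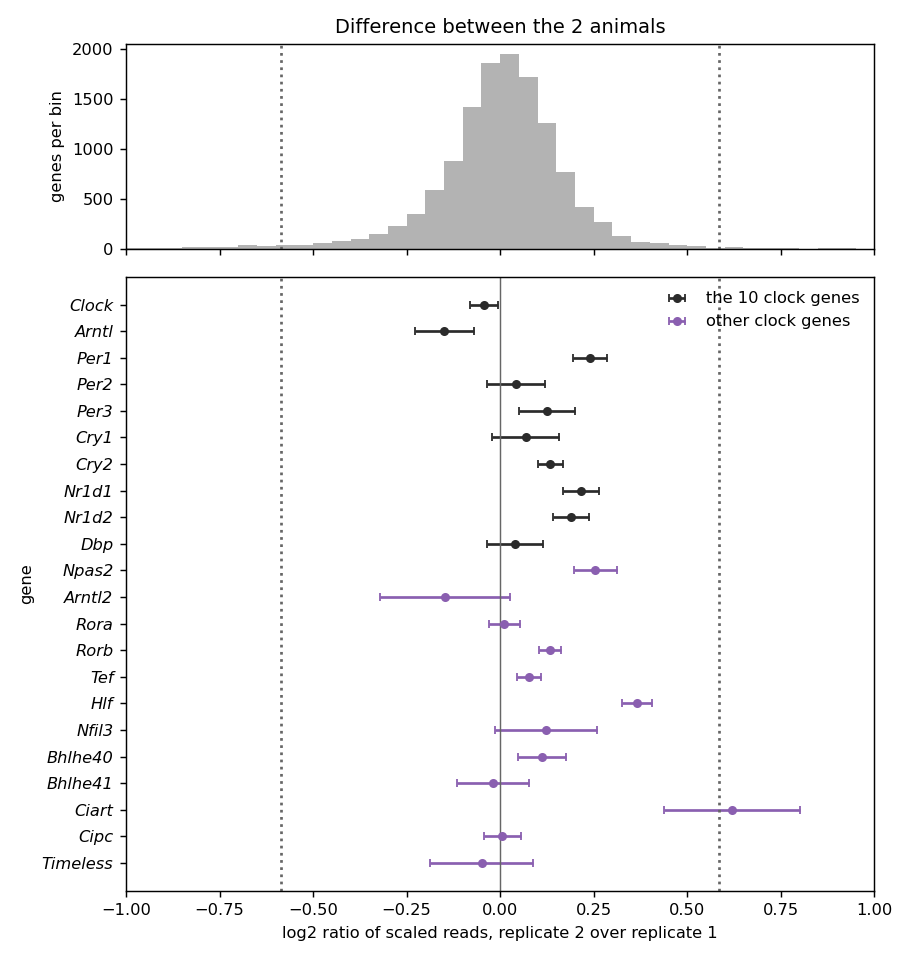
Log2 ratio of scaled reads, replicate 2 over replicate 1 (horizontal axis of both panels): above, the number of genes per bin among 12689 genes tested; below, the 10 clock genes and 12 other clock genes with bars of 1 counting standard error. Dotted lines mark 1.5-fold; the 10 clock genes lie between them, and Ciart lies beyond.

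Other genes of the clock were taken as whole lists. Npas2, the paralogue of Clock, was higher in replicate 2 at 0.25 (0.057), on the other side of 0 from Clock and Arntl, and Arntl2 was at -0.15 (0.17). Of the ROR receptors, Rora was at 0.011 (0.041) and Rorb at 0.13 (0.029). Of 3 D-box factors, 3 were higher in replicate 2, and Hlf was highest at 0.37 (0.041), or 1.29-fold. Of 5 further repressors, 3 were higher in replicate 2, beside 53.4% of all genes tested. Of the genes higher by scaled reads in these lists, Tef, Bhlhe40 and Cipc were lower in replicate 2 on TPM. Their log2 ratios on TPM were -0.018, -0.073 and -0.094, and their credible intervals overlapped between the animals. Ciart, a repressor of the Clock and Arntl pair, was past 1.5-fold at 0.62 (0.18), from 103 and 161 reads, and Bhlhe40 was at 0.11 (0.065). On TPM the Ciart log2 ratio was 0.50, short of that fold, and its credible intervals overlapped. Its alignment-free TPM was 11.57 and 11.74, from 110 and 168 reads. Cipc, Bhlhe41 and Timeless lay between -0.050 and 0.0060. Of 8 tested kinases and turnover factors of clock proteins, 4 were higher in replicate 2, with a median of 0.00024 and a range from -0.074 to 0.050. These include Csnk1d and Csnk1e, which phosphorylate PER proteins, at 55.1 and 97.5 TPM in replicate 1 and 48.8 and 87.2 TPM in replicate 2. The 4 other clock-linked genes, Nono, Sirt1, Nampt and Noct, ranged from -0.097 to 0.016.

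Several other gene sets, the myelination genes above among them, also differed between the animals, as did the choroid plexus marker Ttr. Their part in the clock values was not tested. Of 12 activity-induced genes, the immediate early genes of neurons, 10 had enough reads, and 10 of 10 were higher in replicate 2, with a median of 0.31 a lowest value of 0.091 for Egr3 and a highest of 0.62 for Arc. Their summed level was 156.36 TPM in replicate 1 and 183.55 TPM in replicate 2. Of 8 glucocorticoid-induced genes, 5 were higher in replicate 2 by scaled reads, with a median of 0.13, from -0.19 for Fkbp5 to 0.29 for Zbtb16. On TPM not all of those 5 were higher. The summed level of the list was 190.59 TPM in replicate 1 and 188.59 TPM in replicate 2, and its median was 23.035 and 23.76 TPM. Cortex markers were higher in replicate 2 by scaled reads for 6 of 6, with a median of 0.19. They ran from 0.051 for Slc17a7 to 0.52 for Fezf2, and their summed level was 805.69 and 810.1 TPM. On TPM not all 6 were higher, and Slc17a7 was among those lower in replicate 2, at a log2 ratio of -0.057 with credible intervals apart. The median of the list was 60.39 TPM in replicate 1 and 68.975 TPM in replicate 2. Striatum markers were lower in replicate 2 for 4 of 5 tested, with a median of -0.23. Their lowest value was -0.36 for Ppp1r1b and their highest 0.031, and their summed level was 87.18 and 71.21 TPM. Of 6 housekeeping genes, 3 were higher and 3 lower by scaled reads, from -0.17 for Tbp to 0.13 for Gapdh. On TPM not all kept their direction. Tbp was then higher in replicate 2, at a log2 ratio of 0.15 with credible intervals that overlapped.

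The annotation lists 44 transcripts for the 10 genes: 24 protein-coding, 12 with a retained intron, 6 processed transcripts without an open reading frame and 2 predicted to undergo nonsense-mediated decay. The leading transcript by share of TPM was the same in both libraries for 10 of 10 genes, and it held more than 50% of the gene's TPM in 9. It was also the leading one by expected counts in 10 of 10.

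Cry1 and Nr1d1 were close to single-transcript genes here. Cry1-201, encoding 606 residues, held 98.6% ± 1.99 (SD, n = 2) of Cry1 TPM, and Nr1d1-201, of 615 codons, held 94.99% ± 1.13. Cry2-201 held 84.1% ± 4.12 and shares its 592 codons with Cry2-202, which ends in a different last exon and held 7.6% and 7.1%. Nr1d2-201 held 73.1% ± 1.86 of TPM but 91.2% of reads.

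Clock was the most divided, with Clock-205 at 46.1% and 51.6% of TPM, Clock-201 at 22.02% and 23.3% and Clock-204 at 10.8% and 10.3%. Clock-205 and Clock-201 both encode 855 residues, and they differ in the first exon and in the length of the 3' end, with 9744 and 7478 bases in all. Clock-204 lacks 3 coding bases at chr5:76229561-76229563, the first bases of an exon on the minus strand. The stretches around them show the 3 bases in capitals.
Clock-205: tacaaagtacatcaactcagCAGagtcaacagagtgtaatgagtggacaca
Clock-204: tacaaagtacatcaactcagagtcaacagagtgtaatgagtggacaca

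By alignment-based TPM, Arntl had the largest change of a leading share between the animals. Arntl-201 held 54.7% of Arntl TPM in replicate 1 and 73.2% in replicate 2 (64.0% ± 13.1), on 411 and 492 reads. Arntl-206 held 24.04% and 14.4%, on 152 and 81.4 reads, and Arntl-203 held 7.8% and 3.3%, on 51.2 and 19.1 reads. The credible intervals of TPM overlapped between the animals for Arntl-201, Arntl-206 and Arntl-203. For Arntl-201 they were 5.55 to 8.90 TPM in replicate 1 and 6.60 to 9.18 TPM in replicate 2. These transcripts encode 626, 633 and 613 residues. They differ within the coding sequence by a 21-base exon at chr7:113281402-113281422, present in Arntl-206, and a 39-base exon at chr7:113283257-113283295, missing from Arntl-203. The joined exons, from mm10 with annotation M21, read as follows, with the 21-base exon in capitals in Arntl-206 and the 39-base exon in capitals in Arntl-201.
Arntl-206: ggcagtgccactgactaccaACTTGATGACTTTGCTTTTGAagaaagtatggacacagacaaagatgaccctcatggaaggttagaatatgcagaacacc
Arntl-201: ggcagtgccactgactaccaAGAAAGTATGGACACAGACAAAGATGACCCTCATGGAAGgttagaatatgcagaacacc
Arntl-203: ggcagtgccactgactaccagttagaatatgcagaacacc

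Both exons are multiples of the codon length, so the reading frame is the same on either side. The alignment-free tables gave Arntl-206 28.3% and 16.6%, again higher in replicate 1, but Arntl-203 7.1% and 6.7%, close to equal.

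For Per1 and Per2, shares of TPM and of reads diverged, and the divergence came with short transcripts. Per1-201, of 1291 codons, held 54.4% ± 7.57 of Per1 TPM but 79.3% of its reads. Per1-204, an annotated fragment of 496 bases that begins at the second start shown above, held 35.3% and 25.4% of TPM on 92.2 and 69.8 reads, and 0% in the alignment-free tables. Over transcripts of 500 bases or more, Per1 was at 22.7 and 25.3 TPM (23.995 ± 1.79) and ranked below Nr1d2 and Dbp by mean, within the spread between the libraries. On that setting Per1 was higher in replicate 2, as it was by reads. Per2-202, of 231 bases, held 14.2% and 20.6% of Per2 TPM on 2.5 and 4.1 reads, and without it Per2 was at 6.18 and 5.90 TPM, below Per3 in both libraries.

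The starts of Per1 also split its reads. The transcript that begins at the start downstream of the E-box window, Per1-201, had 1475 and 1893 reads. Per1-202, which begins further upstream and encodes 827 residues, had 332 and 317 reads. Per1-206 encodes the same number of residues, 1291, from close to the second start and had 0 and 3.81 reads in the alignment-based tables. The alignment-free tables gave it 5.9% and 51.8% of Per1 TPM and gave Per1-201 66.1% and 27.05%, a wider change than that of Arntl-201, so the use of the Per1 starts was not settled by these tables.

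Dbp-201, of 325 codons, held 61.8% of TPM in each library. The shorter coding forms differed in opposite directions, with Dbp-204 at 8.0% and 22.2% and Dbp-203 at 14.5% and 2.0%. Dbp-203 was at 0% in the alignment-free tables. For each of these forms the credible intervals of TPM overlapped between the libraries, so neither difference was resolved. Per3-201 held 64.3% and 72.1% of Per3 TPM.

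**Figure D4:**
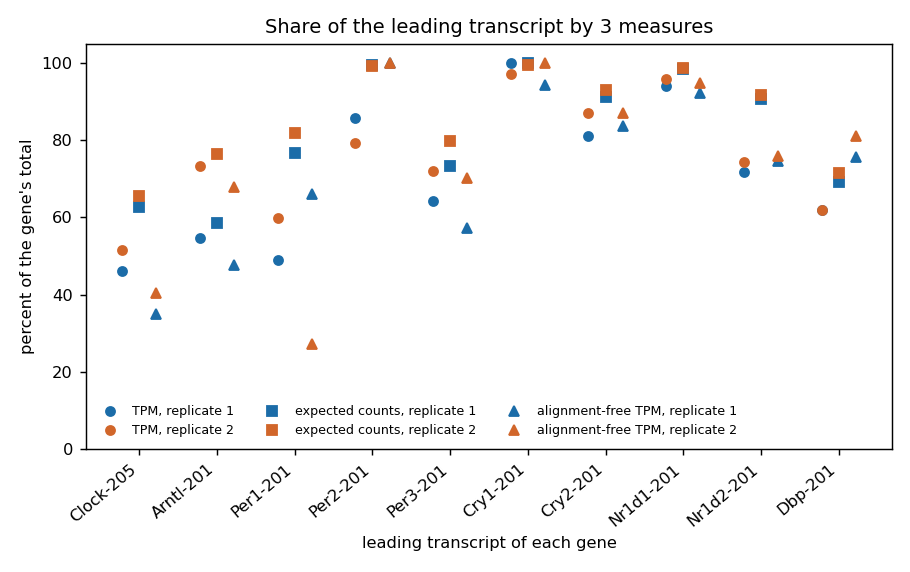
Share of each gene's leading transcript in percent (vertical axis), by TPM, by expected counts and by alignment-free TPM, with blue for replicate 1 and orange for replicate 2. The measures lie close for Cry1-201 and Nr1d1-201 and far apart for Per1-201 and Clock-205.

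Reads on transcripts with a retained intron made up 16.8% ± 1.51 (SD, n = 2) of Per3 reads, at 17.9% and 15.8%, and 13.0% ± 2.39 of Dbp reads, at 14.7% and 11.4%. The share was 8.83% ± 0.746 for Nr1d2, 8.73% ± 1.27 for Arntl, 4.09% ± 0.783 for Clock and 0.198% ± 0.279 for Cry1. Beside these, the median was 4.96% over 7056 genes with such a transcript and enough reads, with quartiles of 1.80% and 12.5%. Per3 was above the upper quartile in both libraries, Dbp was above it by mean and in replicate 1, and Cry1 was below the lower quartile. The 4 other genes have no annotated transcript of this class. Replicate 1 had the higher share for Clock, Arntl, Per3, Nr1d2 and Dbp, and the median over all genes was also higher there, at 5.40% against 4.47%. Ribosome-depleted total RNA includes unspliced nuclear RNA, and the part of unspliced RNA in these shares was not tested.

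**Figure D5:**
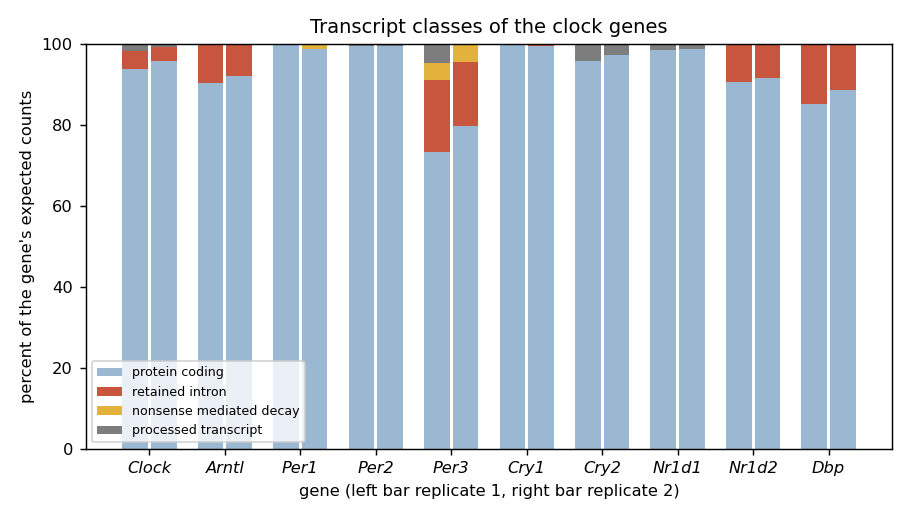
Percent of each gene's expected counts on each class of annotated transcript (vertical axis, from 0), with the left bar for replicate 1 and the right bar for replicate 2. Per3 and Dbp have the lowest protein-coding shares, while Per1, Per2 and Cry1 are almost wholly protein-coding.

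Several of the genes share exon bases with a neighbour on the opposite strand, and the sources used here do not say whether counting used strand. Nr1d1 (chr11:98767932-98775333, minus strand) shares 263 of its 3077 exon bases with Thra, a thyroid hormone receptor gene, which was at 547 ± 4.33 TPM. Dbp (chr7:45705088-45710203, plus strand) shares 539 of 2993 exon bases with Sphk2, at 12.6 ± 0.587 TPM. Cry2 shares 295 bases with D930015M05Rik and Arntl 33 bases with Gm45355, and both of these were at 0 reads in both libraries. Per3 lies within the span of Camta1, and the processed pseudogene Ube2n-ps1 within that of Clock, on the same strand with 0 shared exon bases.

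Alignment-based TPM was below alignment-free TPM, as the mean over libraries, for each of the 10 clock genes, with a median log2 ratio of -0.48, from -0.64 for Per3 to -0.039 for Per1. Over 11890 nuclear protein-coding genes the median was -0.58. After both were rescaled over nuclear protein-coding genes, a setting added after the values were seen, the medians were 0.20 and 0.095. Per1 stood highest, at 0.64, and Per3 lowest, at 0.030. Reads differed less than TPM for 9 of the 10 genes, with log2 ratios from -0.25 for Per3 to -0.012 for Nr1d2, and more for Per1, at -0.10. The direction of the mean log2 ratio was the same in both quantifications for 17 of the 17 gene pairs. These include Per3 over Per2, Clock over Npas2 and Dbp over Hlf, whose order by alignment-based TPM differed between the libraries. For Per3 over Per2 the mean was 0.00012, against 0.42 by alignment-free TPM.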

How the data were processed

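Total RNA-seq of 2 libraries of 1 group was analysed. The authors derived expected counts and TPM per gene and transcript from transcriptome alignments (mm10, annotation M21), according to the deposited README files; the sources used here do not name the tool. The bounds of the TPM credible intervals, recorded as signal values, were used as the authors deposited them. Deposited TPM is scaled over all rows, spike-ins included. Estimated counts and TPM of a second, alignment-free quantification were also deposited by the authors. The 10 genes, the other gene lists and the pairs were chosen with earlier results of these data known. All 10 clock genes and every gene of the other clock lists were to be named or counted, and the remaining lists given as counts, medians and extremes (3 genes are not reported by name here); no ranking by likeness was made with 2 samples. Ratios between genes used log2(TPM + 0.1). The animals were compared on unrounded expected counts scaled by TMM (edgeR 4.0.16), with 0.5 added, over genes with a mean of 100 reads or more, and called at 1.5-fold; DESeq2 1.42.0 size factors were an alternative. The ratio step was tested on simulated data. Intervals and errors cover counting or assignment only. Promoter windows are from RefSeq and exons from GENCODE M21. SDs describe these 2 animals.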

Additional observations from a re-analysis of the deposited data

How the results depend on the processing

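No paired analysis was possible because the 2 libraries form a single group. The median level of the 10 clock genes was 22.2 TPM, 30.3 TPM in the alignment-free tables and 44.8 TPM after rescaling over nuclear protein-coding genes; leaving out either replicate gave 21.46 to 23.02 TPM. Per3 rose most with the alignment-free tables, by 1.57-fold, and rescaling raised each of the 10 genes by 2.01 to 2.02-fold. The number of clock genes past the fold was 0 under each alternative tried. The percent of all genes past it was 1.77, and 3.15 on the TPM ratio, 6.11 with a mean of 20 reads or more, 31.9 with no filter, 0.37 at 2-fold and 6.79 at the lower fold tried. On the TPM ratio, the median over the clock genes went from 0.096 to -0.020, the number higher in replicate 2 from 8 to 3, and 5 genes changed sign: Per1 to -0.054, Per3 to -0.025, Cry1 to -0.0031, Cry2 to -0.043 and Dbp to -0.015; the cause was not tested. The median share of reads on protein-coding transcripts over all genes was 96.2%, and 97.0% with a mean of 1000 reads or more. The median log2 ratio of the quantifications changed sign to 0.20 on rescaling over nuclear protein-coding genes, which changes the total that each TPM is divided by. In the alignment-free tables, Per1 over Per3 fell from 4.66-fold to 3.07-fold, and Per1 over Arntl from 2.66-fold to 1.86-fold. Over transcripts of 500 bases or more, the pairs with 1 direction in both libraries went from 14 to 16. Depth limits Per2, Cry1, Dbp, Arntl and Per3, each with a mean under 1000 reads, and the shares of minor transcripts, several of which rest on fewer than 100 reads.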
